A study of Homo sapiens with 42 samples.

Results

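Mammalian cells swap several parts of the mitochondrial respiratory chain when oxygen is scarce, and these RNA-seq libraries measured 7 of the genes involved. The genes were chosen by symbol from the count tables, 7 of the 60609 genes listed, with earlier results of these data known. NDUFA4L2 and COX4I2 are the inducible isoforms, and NDUFA4 and COX4I1 are their constitutive paralogs. LONP1, ISCU and HIGD1A act on the chain from outside the pairs.

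Cytochrome c oxidase, complex IV, passes electrons to oxygen, and its subunit 4 exists as the housekeeping COX4I1 and the hypoxia-inducible COX4I2. The mitochondrial protease LONP1 is known to degrade COX4I1 protein when the isoforms are exchanged. NDUFA4 was first described as a complex I subunit and is now placed in complex IV, whereas its paralog NDUFA4L2 is a target of hypoxia-inducible factor (HIF) that lowers complex I activity and is known for its abundance in clear cell renal cell carcinoma (ccRCC) tumours. ISCU is the scaffold on which iron-sulfur clusters for complex I and other enzymes are built, and it is a classical target of the hypoxia-induced microRNA miR-210. HIGD1A is a small inner-membrane protein, itself hypoxia-inducible, that binds complex IV.

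The study used 786-O, a ccRCC line that lacks functional VHL and functional HIF-1a and keeps its own HIF-2a stabilized, so every group carries that background. Polyadenylated RNA was sequenced in 2 batches with 3 libraries per group, 27 in batch 1 and 15 in batch 2, and the labels name no hypoxic treatment. Batch 1 held unedited cells (WT), a HIF-1b KIN and a HIF-2a KIN clone with V5-Halo knocked into both endogenous copies of the gene, and stable lines in which an L30 promoter drives V5-Halo-tagged HIF-1a, HIF-1a R30E, HIF-1aDM (R170A, V191D), HIF-2a, HIF-2a R27E or HIF-2aDM (R171A, V192D). R30E and R27E are DNA-binding mutants, and the DM proteins are mutated at the dimerization surface. Batch 2 held WT cells, HIF-1a, HIF-2a and 2 chimeras that exchange the structured N-terminal part with the long C-terminal intrinsically disordered region (IDR). HIF-2a/1a joins residues 1 to 365 of HIF-2a to residues 364 to 826 of HIF-1a, and HIF-1a/2a joins residues 1 to 363 of HIF-1a to residues 366 to 870 of HIF-2a. Each knock-in line is 1 clone. The study's methods call the 3 libraries of a group biological replicates. The labels do not say whether they came from separate cultures, so p-values measure the spread between these libraries.

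Counts of reads summed to between 42377599 and 101186554 per library in batch 1 and between 76366799 and 109642159 in batch 2. Levels are given as CPM, the reads of a gene scaled to a fixed library size, normalised within each batch by the trimmed mean of M-values (TMM). HIF1A averaged 3.61 CPM in WT of batch 1 and 45.2 CPM in its HIF-1a line, against 3.27 and 147 CPM in batch 2, and EPAS1, the HIF-2a gene, rose from 215.9 to 665.5 CPM and from 140.9 to 475.1 CPM in the HIF-2a lines. HIF1A also rose in the HIF-2a lines, by 1.91 and 1.67 on the log2 scale. All 8 renal epithelial markers examined were expressed, with PAX8 at 208 to 551 CPM and KRT8 at 774 to 2690 CPM. VIM, at 311 to 3130 CPM, was counted among the 8 and is part of their sum given below. Of 7 markers of other cells, PTPRC, CD68, PECAM1 and VWF stayed at or below 0.124 CPM in every library, whereas PDGFRB reached 20.4 CPM and COL1A1 36.8 CPM. The sum of these 7 was 13.1 to 19.3 CPM in WT, 28.4 to 41.5 in HIF-2a KIN, 31.2 to 38.9 in HIF-1a, 27.8 to 42.1 in HIF-2a and 11.5 to 26.8 in the other 5 lines of batch 1, and 8.41 to 10 in WT, 17.9 to 20.9 in HIF-1a, 18.2 to 23.3 in HIF-2a/1a, 21.5 to 22.8 in HIF-2a and 10.6 to 11.5 in HIF-1a/2a of batch 2, against 3270 to 5430 CPM for the epithelial markers. Its part in the results was not tested. Each library is bulk RNA, so fewer expressing cells and less RNA per cell cannot be told apart.

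The inducible isoform of subunit 4 was not detectable at this depth. COX4I2 (hg38, chr20:31637912-31645006, plus strand) had 0 reads in 40 of the 42 libraries and 1 read each in a HIF-2aDM library of batch 1 and a HIF-2a/1a library of batch 2. These 2 reads are all that the series held for it. It had too few reads to be tested, and 3 counts, the smallest number taken as detectable, equalled 0.0313 to 0.0706 CPM per library in batch 1 and 0.0271 to 0.0399 CPM in batch 2. Intervals and limits of this kind cover counting error only.

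Its paralog COX4I1 (chr16:85798633-85807068, plus strand) had 14459 to 40683 reads per library. Per kilobase of merged exons, COX4I1 stood at least 670 to 1880 times above the 3-count limit of COX4I2 in the libraries of batch 1 and at least 1020 to 1600 times above it in batch 2. No line, including those expressing HIF-1a or HIF-2a, brought COX4I2 above that limit.

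The second pair was expressed from both genes, with the constitutive one well ahead. NDUFA4L2 (chr12:57234903-57240715, minus strand) had 30 to 205 reads per library and 4141 in all, and NDUFA4 (chr7:10931943-10940153, minus strand) had 1374 to 9957. Per kilobase of merged exons the NDUFA4L2 level was 0.723 to 11.5% of the NDUFA4 level in batch 1 and 0.754 to 2.42% in batch 2. In WT cells the log2 ratio of the pair averaged -3.84 ± 0.548 in batch 1 and -5.46 ± 0.0809 in batch 2 (SD, n = 3). The lowest mean ratio of batch 1 was that of HIF-1b KIN at -5.98 ± 1.20, and that of batch 2 was HIF-1a at -6.62 ± 0.410. The batches were extracted and prepared with different kits, so for levels the batch and its preparation cannot be told apart.

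**Figure D1:**
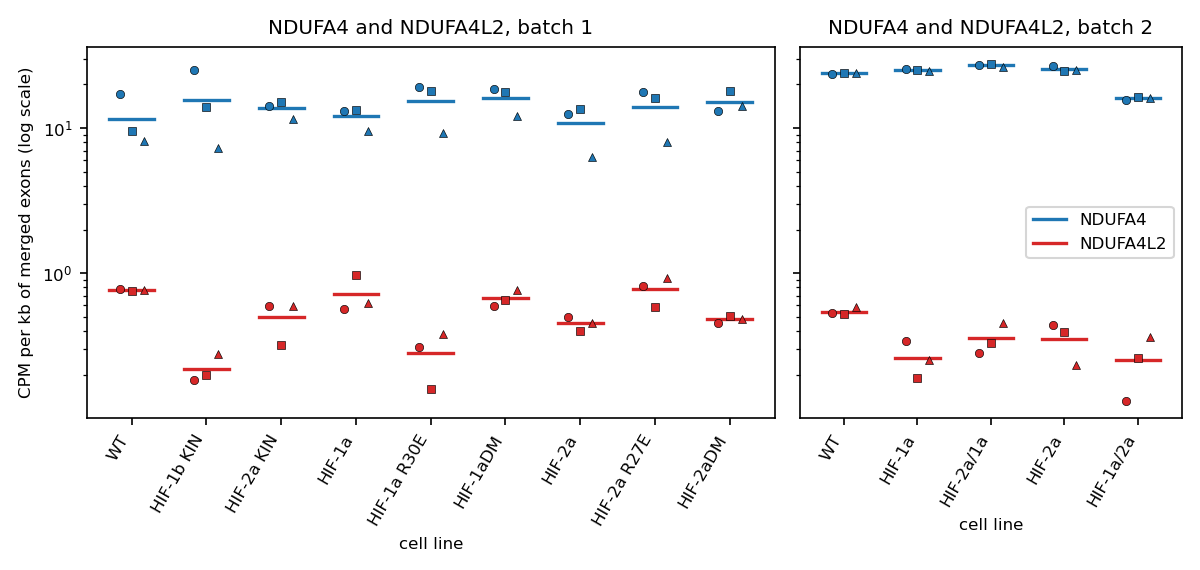
Levels of NDUFA4 (blue) and NDUFA4L2 (red) in CPM per kilobase of merged exons on a log axis, for each library of batch 1 (left) and batch 2 (right). Circles, squares and triangles are replicates 1, 2 and 3 and bars are group means. NDUFA4L2 stayed below NDUFA4 in all 42 libraries, at 0.723 to 11.5% of it in batch 1 and 0.754 to 2.42% in batch 2.

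Of the 7 genes 6 could be tested, each in a quasi-likelihood fit across all genes of its batch with Benjamini-Hochberg adjustment over every gene tested. A gene passed at an adjusted p of 0.01 or less, and was called when it also changed at least 2-fold. All comparisons with WT in a batch share the same 3 WT libraries. In batch 1, HIF-1b KIN and HIF-1a R30E had 1 member called each, NDUFA4L2 and lower in both, where 1.38% and 2.61% of all tested genes were called and 1.78% and 3.33% passed. By edgeR no member passed in HIF-2a KIN, HIF-1a, HIF-1aDM, HIF-2a, HIF-2a R27E or HIF-2aDM, where 5.89%, 4.79%, 0.474%, 7.99%, 0.521% and 0.504% of all genes passed and 4.14%, 3.79%, 0.457%, 5.72%, 0.496% and 0.474% were called. At an unadjusted p under 0.05 the numbers of members in those 6 lines were 0, 1, 0, 1, 0 and 1, and DESeq2 also passed 0 in each. A block for the replicate number raised the share of all genes called to 0.884% in HIF-1aDM and 0.91% in HIF-2a R27E, and no member passed in either.

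In batch 2, of the 6 tested members, 2 passed in HIF-1a, 1 in HIF-2a/1a, 2 in HIF-2a and 4 in HIF-1a/2a, all lower than WT, against 17.2%, 16.7%, 27.4% and 27.8% of all genes passing in either direction and 7.87%, 7.91%, 14% and 14.1% passing as lower. NDUFA4L2 was the 1 member called in HIF-1a and in HIF-1a/2a, where 4.39% and 7.78% of genes were called. No member was called in HIF-2a/1a or HIF-2a, against 3.49% and 7.58% of genes, and 4 and 3 members had an unadjusted p under 0.05 there by edgeR. DESeq2 also called 0 in both. No tested member rose at least 2-fold over WT in any of the 12 lines.

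**Figure D2:**
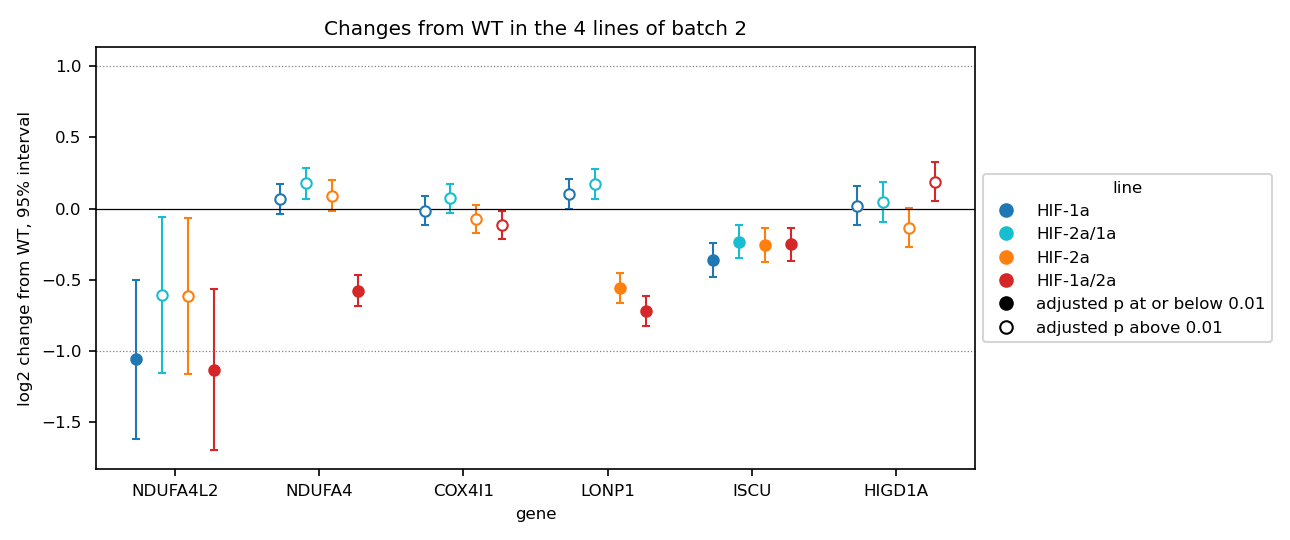
Log2 change from WT of the 6 tested members in the 4 lines of batch 2 with 95% intervals from the fit, coloured by line, filled where the adjusted p was 0.01 or less. Dotted lines mark a 2-fold change. ISCU was lower in all 4 lines, by 0.23 to 0.36 on the log2 scale, LONP1 was lower in HIF-2a and HIF-1a/2a, and NDUFA4 was lower in HIF-1a/2a.

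The log2 change of NDUFA4L2 from WT was below 0 in 11 of the 12 lines and passed in 4 of them, 2 in each batch. The 3 WT libraries of batch 1 held 2.20, 2.12 and 2.15 CPM, and those of HIF-1b KIN held 0.513, 0.555 and 0.776 CPM. The HIF-1a R30E libraries held 0.864, 0.449 and 1.07 CPM. Neither of these lines overlapped WT. NDUFA4L2 was 3.49-fold lower in HIF-1b KIN (log2 change -1.80, SE 0.314, adjusted p = 0.000612 by edgeR) and 2.71-fold lower in HIF-1a R30E (log2 change -1.44, SE 0.309, adjusted p = 0.00339). The 192 other tested genes within 5 Mb of NDUFA4L2 had a median log2 change of -0.29 in HIF-1b KIN, where 0 passed as higher and 6 as lower, and of -0.22 in HIF-1a R30E, where 3 passed in each direction, against -0.03 and -0.04 over all genes. The same 192 genes had a median of -0.20 in HIF-1a and -0.23 in HIF-2a of batch 1, where NDUFA4L2 did not pass. In HIF-1a 8 passed as higher and 5 as lower, and in HIF-2a 8 and 13. In the other lines of batch 1 their median ran from -0.14 in HIF-2aDM to 0.03 in HIF-2a KIN. The part of the surrounding region in the 2 falls was not tested.

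Full-length HIF-1a overlapped WT in that batch. Its libraries held 1.59, 2.71 and 1.75 CPM, on both sides of the WT values, and the log2 change was -0.10 (SE 0.298, adjusted p = 0.923). Against its own DNA-binding mutant, HIF-1a was 2.53-fold higher in NDUFA4L2 (log2 difference 1.34, SE 0.310, adjusted p = 0.00963), the 1 member called in that comparison, where 2.18% of genes passed and 1.75% were called. That call was lost without any of the 3 HIF-1a libraries or without HIF-1a R30E replicate 1 or 2, with adjusted p up to 0.107. The R30E call against WT was lost without any of the 3 WT libraries or without R30E replicate 1 or 2, with adjusted p from 0.0120 to 0.0269.

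HIF-2a KIN held 1.66, 0.893 and 1.66 CPM, HIF-2a held 1.41, 1.12 and 1.28 CPM, and HIF-2aDM held 1.27, 1.43 and 1.35 CPM. All 9 of these libraries lay below the 3 WT libraries, with log2 changes of -0.61, -0.76 and -0.67, but none passed (adjusted p = 0.230, 0.104 and 0.553). HIF-1aDM, at 1.68, 1.83 and 2.15 CPM, and HIF-2a R27E, at 2.30, 1.65 and 2.60 CPM, overlapped WT.

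In order of the group means, NDUFA4L2 in batch 1 ran from HIF-2a R27E (2.18 ± 0.486 CPM, SD, n = 3) and WT (2.16 ± 0.0423) through HIF-1a (2.02 ± 0.605) and HIF-1aDM (1.88 ± 0.239) to HIF-2a KIN (1.40 ± 0.442), HIF-2aDM (1.35 ± 0.0765) and HIF-2a (1.27 ± 0.145), and ended with HIF-1a R30E (0.794 ± 0.316) and HIF-1b KIN (0.614 ± 0.142). Neighbours in this order overlapped in 6 of 8 cases. The breaks fell between HIF-1aDM and HIF-2a KIN and between HIF-2a and HIF-1a R30E.

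In batch 2 the WT libraries held 1.48, 1.46 and 1.63 CPM of NDUFA4L2. HIF-1a held 0.959, 0.530 and 0.709 CPM and HIF-1a/2a held 0.370, 0.731 and 1.02 CPM. HIF-2a/1a held 0.793, 0.934 and 1.28 CPM and HIF-2a held 1.23, 1.10 and 0.655 CPM. All 12 libraries of the 4 lines lay below WT, and the 4 lines overlapped each other. In HIF-1a, HIF-2a/1a, HIF-2a and HIF-1a/2a, the 220 other tested genes within 5 Mb had median log2 changes of -0.07, -0.01, -0.01 and -0.06. Over all genes the medians were 0.03, 0.03, 0.07 and 0.08. Of the 220 genes 32, 20, 41 and 44 passed as lower and 13, 20, 28 and 25 as higher. Of all genes 7.87%, 7.91%, 14% and 14.1% passed as lower. The part of the surrounding region was not tested here either.

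The falls in HIF-1a (2.08-fold, log2 change -1.06, SE 0.276, adjusted p = 0.00294 by edgeR) and HIF-1a/2a (2.19-fold, log2 change -1.13, SE 0.280, adjusted p = 0.00101) were called, and those in HIF-2a/1a and HIF-2a (both -0.61, adjusted p = 0.108 and 0.0794) were not. The HIF-1a call was lost without WT replicate 3, HIF-1a replicate 2 or HIF-1a replicate 3, with adjusted p from 0.0114 to 0.0365, and the HIF-1a/2a call was lost without HIF-1a/2a replicate 1 (adjusted p = 0.0248). The log2 change of HIF-1a from WT in batch 2 minus that in batch 1 was -1.11 (SE 0.377), which did not pass (adjusted p = 0.784 by edgeR in a fit of both batches). For the change from WT of HIF-1a and of HIF-2a, no member's difference between the batches passed, with 1 and 0 members at an unadjusted p under 0.05, 0 passing by DESeq2, and 0% of all genes passing or called in both.

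The last exon of NDUFA4L2 runs into the end of SHMT2 (chr12:57229573-57234935, plus strand), which encodes the mitochondrial serine hydroxymethyltransferase. They share 33 exon bases, 1.18% of the merged exons of NDUFA4L2, and the reads were counted without strand. Per kilobase of merged exons, SHMT2 stood at 117.1 in WT of batch 1 and 85.5 in WT of batch 2, against 0.769 and 0.545 for NDUFA4L2. It was lower in HIF-1b KIN (log2 change -0.59, adjusted p = 0.0624) and HIF-1a R30E (-0.44, adjusted p = 0.173), neither of which passed, and it fell in all 4 lines of batch 2, by 0.49 in HIF-1a, 0.41 in HIF-2a/1a, 0.75 in HIF-2a and 0.57 in HIF-1a/2a on the log2 scale. Its largest fall of batch 1 that passed was in HIF-2a (-0.82, adjusted p = 0.00162), where NDUFA4L2 did not pass. The part of SHMT2 reads in the NDUFA4L2 counts was not tested.

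**Figure D3:**
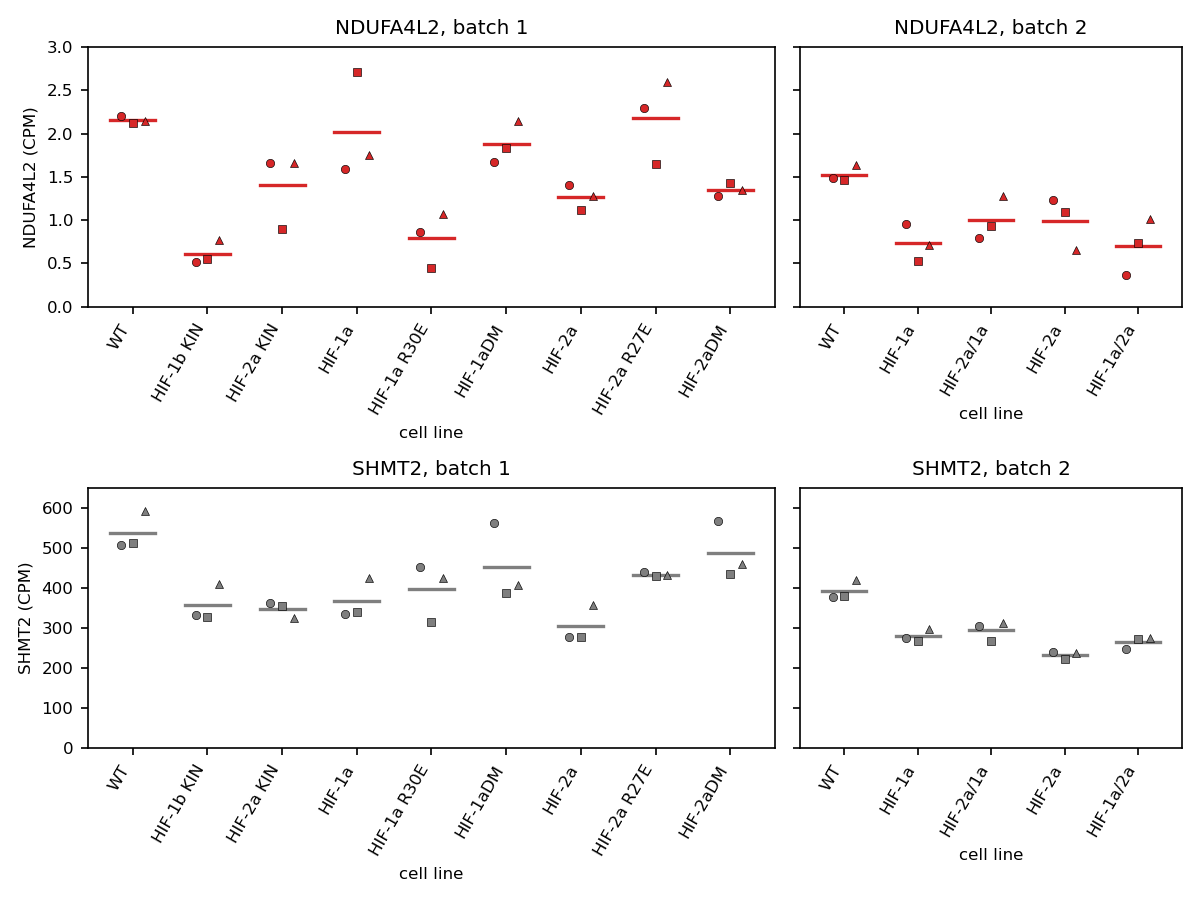
CPM of NDUFA4L2 (top) and of the overlapping gene SHMT2 (bottom) in each library of batch 1 (left) and batch 2 (right). Circles, squares and triangles are replicates 1, 2 and 3 and bars are group means. NDUFA4L2 was lowest in HIF-1b KIN (mean 0.614 CPM) and HIF-1a R30E (0.794 CPM) of batch 1, and all 12 libraries of the 4 lines of batch 2 lay below WT.

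The stretch before the NDUFA4L2 start is shown because HIF dimers bind a short core, ACGTG or GCGTG, in DNA. The 250 bases upstream of the first RefSeq start (GRCh38.p14, chr12:57240763-57241012, minus strand) hold 2 matches, both GCGTG, in capitals here.
NDUFA4L2 promoter: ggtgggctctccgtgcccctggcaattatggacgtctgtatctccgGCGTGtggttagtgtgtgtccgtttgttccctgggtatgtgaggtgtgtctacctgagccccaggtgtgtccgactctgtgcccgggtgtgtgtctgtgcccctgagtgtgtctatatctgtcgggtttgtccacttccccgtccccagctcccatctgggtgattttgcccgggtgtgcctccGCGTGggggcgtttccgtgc
At least 1 match to either core on either strand was present in 43.2% of the 35114 promoter windows of that length, 18.5% for ACGTG and 32.2% for GCGTG. NDUFA4 and COX4I1 had 0 matches in their windows, ISCU 2 and HIGD1A 3. RefSeq windows matched 6 of the 7 members. A match is a description of the letters only, and binding was not measured here.

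By a fixed rule, the genes whose group pattern was most like that of NDUFA4L2 included TRAK1, MBD6, HULC and MNT, with Pearson's r of 0.930, 0.883, 0.805 and 0.799 among 12461 candidates. The 12 points are the differences of each line's mean log2 level from WT of the same batch, so they share 6 WT libraries and are given as a description. MBD6 lies 280 kb from NDUFA4L2 on chromosome 12. By Spearman's rho the first 4 were MBD6, MXD1, TRAK1 and GOLM1. COX4I2 had too few reads for such a search.

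NDUFA4 showed no change that passed in batch 1 and 1 line apart from the rest in batch 2. In batch 1 the group means ran from 37.4 ± 13.7 CPM in HIF-2a to 55.7 ± 12.2 in HIF-1aDM (SD, n = 3), and all 8 neighbouring pairs in the order overlapped. The largest log2 change was 0.47 in HIF-1aDM (SE 0.366, adjusted p = 0.794). Replicate 3 was the lowest library in 8 of the 9 groups, at a median of 0.608 times the mean of the other two.

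In batch 2 the WT libraries held 81.8, 83.4 and 83.5 CPM of NDUFA4, and the HIF-1a/2a libraries held 54.0, 57.0 and 55.9 CPM. The fall was 1.49-fold (log2 change -0.58, SE 0.0535, adjusted p = 2.09e-12 by edgeR), and the groups did not overlap. The HIF-1a, HIF-2a/1a and HIF-2a means were 86.9 ± 1.47, 93.8 ± 1.99 and 88.3 ± 3.48 CPM. All 9 of those libraries lay above WT, by log2 changes of 0.07, 0.18 and 0.09 that did not pass, the nearest being HIF-2a/1a (adjusted p = 0.0102).

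The 4 lines of batch 2 cross both structured parts with both IDRs, so a contrast for each part can be fitted. Each construct was 1 group of 3 libraries there, so its parts, its expression level and other traits of its line cannot be told apart. EPAS1 averaged 574.4 CPM in HIF-1a/2a, 475.1 in HIF-2a and 231.7 in HIF-2a/1a. HIF1A averaged 147 CPM in HIF-1a, 107.5 in HIF-2a/1a and 108.7 in HIF-1a/2a. WT of batch 2 held 140.9 CPM of EPAS1 and 3.27 CPM of HIF1A without a construct. A chimera carries only a part of each protein's coding sequence. These CPM therefore do not compare the expression of full-length and chimeric constructs. The IDR effect is the mean of the 2 lines with the HIF-2a IDR minus the mean of the 2 with the HIF-1a IDR, the structured-domain effect is the same for the N-terminal part, and the interaction is the IDR effect on the HIF-2a structured part minus that on the HIF-1a one. For the IDR effect 3 of 6 members passed (24.7% of all genes), for the structured domain 1 (11.4%) and for the interaction 1 (5.37%), and by edgeR 0 members were called in each, where 4.41%, 1.04% and 1.18% of genes were called. At an unadjusted p under 0.05 there were 3, 4 and 2 members, and DESeq2 called 0 in each.

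NDUFA4 passed in all 3. Its IDR effect was -0.37 (SE 0.0377, adjusted p = 5e-11), its structured-domain effect 0.39 (SE 0.0377, adjusted p = 5.02e-11) and its interaction 0.56 (SE 0.0753, adjusted p = 5.13e-07, by edgeR). The lower level was thus seen in 1 of the 4 lines, in 3 of 3 libraries. That line joins the HIF-1a structured part to the HIF-2a IDR. Its combination of parts, its expression level and its other traits cannot be told apart.

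C15orf48 encodes the third member of the NDUFA4 protein family, known to take the place of NDUFA4 in complex IV. It was on the list of complex IV subunits, but its description here was chosen after its values were seen. The WT libraries of batch 2 held 30.0, 29.2 and 30.1 CPM and those of HIF-1a/2a held 126.9, 122.8 and 133.6 CPM. The rise was 2.10 on the log2 scale (SE 0.0713, adjusted p = 1.41e-27 by edgeR). HIF-2a was also higher, at 46.9 ± 2.74 CPM (log2 change 0.66, SE 0.0699, adjusted p = 8.77e-11), whereas HIF-1a and HIF-2a/1a were lower, at 24.5 ± 2.56 and 17.0 ± 1.74 CPM.

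Per kilobase of merged exons, C15orf48 stood at 21.9 ± 0.367 against 24.0 ± 0.272 for NDUFA4 in WT, and at 94.3 ± 4.03 against 16.1 ± 0.437 in HIF-1a/2a. The relation between the 2 transcripts was not tested. In batch 1 C15orf48 averaged 11.6 ± 2.53 CPM in WT and 16.5 ± 2.91 CPM in HIF-2a, with a log2 change of 0.52 that did not pass (adjusted p = 0.393).

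**Figure D4:**
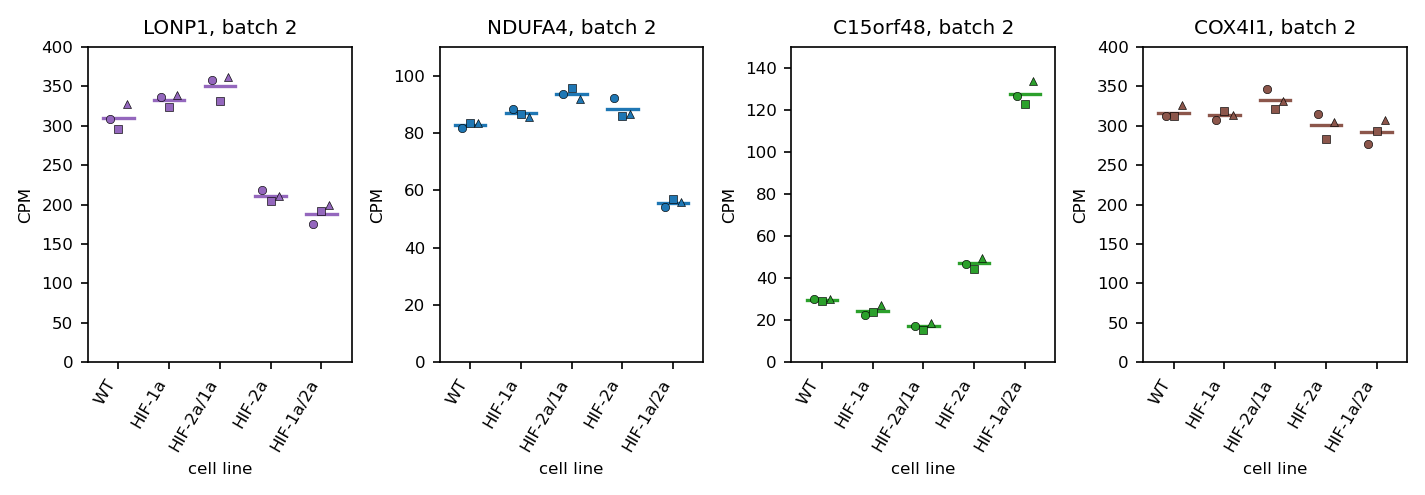
CPM of LONP1, NDUFA4, C15orf48 and COX4I1 in each library of batch 2, each axis starting at 0. Circles, squares and triangles are replicates 1, 2 and 3 and bars are group means. LONP1 was lower in both lines with the HIF-2a IDR, whereas NDUFA4 was lower (55.6 CPM) and C15orf48 higher (127.8 CPM) in HIF-1a/2a.

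COX4I1, the constitutive subunit 4, varied little in batch 2. Its group means ran from 292.6 ± 15.0 CPM in HIF-1a/2a to 333 ± 12.8 CPM in HIF-2a/1a (SD, n = 3), and all 4 neighbouring pairs overlapped. No change from WT passed in either batch, with log2 changes of -0.19 to 0.32 in batch 1 and -0.11 to 0.07 in batch 2. The IDR effect was -0.12 (SE 0.0354, adjusted p = 0.00558 by edgeR), an 8.12% lower level with the HIF-2a IDR, but the groups overlapped and it no longer passed when any of 6 libraries was left out, with adjusted p up to 0.0223 (HIF-1a replicate 2 or 3, HIF-2a/1a replicate 1, HIF-2a replicate 2, HIF-1a/2a replicate 1 or 2). In batch 1 replicate 3 was the lowest library in 9 of 9 groups, at a median of 0.655 times the mean of the other two, and all 8 neighbouring groups overlapped.

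LONP1 (chr19:5691834-5720572, minus strand), the protease, separated the batch 2 lines by their IDR. The WT libraries held 308, 295.3 and 327.6 CPM, HIF-1a held 337, 323.6 and 338.5 CPM, and HIF-2a/1a held 357.5, 331.1 and 361.3 CPM. HIF-2a held 218.5, 204.4 and 210.4 CPM, and HIF-1a/2a held 174.7, 191.3 and 198.8 CPM. The 6 libraries with the HIF-2a IDR all lay below the other 9, and HIF-1a/2a lay below HIF-2a.

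LONP1 fell 1.47-fold in HIF-2a (log2 change -0.56, SE 0.0526, adjusted p = 3.67e-12) and 1.65-fold in HIF-1a/2a (-0.72, SE 0.0527, adjusted p = 1.28e-15, by edgeR). The HIF-1a and HIF-2a/1a changes were 0.10 and 0.17 and did not pass (adjusted p = 0.176 and 0.0110). Between HIF-2a and HIF-1a the log2 difference was -0.66 (SE 0.0527, adjusted p = 5.21e-14), the 1 member of 6 that passed there (17.6% of genes, 3.78% called). The IDR effect was -0.78 (SE 0.0373, adjusted p = 7.08e-22), and neither the structured domain (0.12, adjusted p = 0.0199) nor the interaction (0.09, adjusted p = 0.521) passed.

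In batch 1 the LONP1 means ran from 360.8 ± 84.8 CPM in HIF-2a to 541 ± 128.4 CPM in HIF-1a, with all 8 neighbouring pairs overlapping. HIF-2a was again lower than HIF-1a, by a log2 difference of -0.58 (SE 0.257) that did not pass (adjusted p = 0.252 by edgeR), while in the same comparison 0 members passed, 2 had an unadjusted p under 0.05, DESeq2 passed 0, and 3.07% of all genes passed and 2.4% were called. In a fit with a block for the replicate number, which paired the libraries here, it was -0.59 (SE 0.148, adjusted p = 0.00743). Replicate 3 was the highest library in 8 of 9 groups, at a median of 1.44 times the mean of the other two. The last exon of LONP1 shares 42 bases, 0.835% of its merged exons, with RPL36 on the opposite strand.

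The window before the first LONP1 start (GRCh38.p14, chr19:5720147-5720396, minus strand) is shown because it held the most HIF cores of the members' windows. It lies within the gene span given above, and the window before a second, upstream start (chr19:5720453-5720702) held 1 match. Its 6 matches were 4 to ACGTG and 2 to GCGTG, read on both strands, and each palindromic CACGTG counts once on each strand. Capitals mark the cores.
LONP1 promoter: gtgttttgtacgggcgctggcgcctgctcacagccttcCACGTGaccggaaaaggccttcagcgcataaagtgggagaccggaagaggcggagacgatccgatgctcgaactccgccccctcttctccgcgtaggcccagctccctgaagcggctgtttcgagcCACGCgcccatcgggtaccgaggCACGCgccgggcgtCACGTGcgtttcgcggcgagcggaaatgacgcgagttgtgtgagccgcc

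ISCU (chr12:108562582-108569368, plus strand) was the one member whose fall passed in all 4 lines of batch 2. That batch had no vector-only or mutant line, so the added HIF-a and the making of the lines cannot be told apart. The WT libraries held 49.5, 50.9 and 50.4 CPM, and the 12 libraries of the lines lay between 38.5 and 44.3 CPM, all below WT. HIF-1a was lowest, at 39.4, 39.6 and 38.5 CPM, with a 1.28-fold fall (log2 change -0.36, SE 0.0589, adjusted p = 4.08e-06 by edgeR). The others fell by 0.23 in HIF-2a/1a, 0.25 in HIF-2a and 0.25 in HIF-1a/2a on the log2 scale (adjusted p = 0.00227, 0.000458 and 0.000521). These 3 lines overlapped each other, HIF-1a did not overlap its nearest neighbour HIF-2a, and the difference between HIF-2a and HIF-1a was 0.11 and did not pass (adjusted p = 0.217). The HIF-2a/1a fall no longer passed without WT replicate 2 or HIF-2a/1a replicate 1 or 2 (adjusted p up to 0.0140). The 150 other tested genes within 5 Mb of ISCU are given for HIF-1a, HIF-2a/1a, HIF-2a and HIF-1a/2a in that order. Of them 32, 21, 35 and 43 passed as lower and 10, 14, 16 and 18 as higher. Of all genes 7.87%, 7.91%, 14% and 14.1% passed as lower. The medians were -0.04, -0.04, -0.07 and -0.13 near ISCU and 0.03, 0.03, 0.07 and 0.08 over all genes. The part of the surrounding region in these falls was not tested.

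In batch 1 the HIF-1a libraries held 26.3, 23.8 and 27.2 CPM of ISCU against 46.2, 33.1 and 28.0 CPM in WT. The groups did not overlap, but the log2 change of -0.47 did not pass (SE 0.176, adjusted p = 0.112). HIF-2a held 30.0, 32.6 and 27.4 CPM, overlapping WT (log2 change -0.25, adjusted p = 0.394). Against their mutants, HIF-1a was lower than HIF-1a R30E, at 48.3, 40.0 and 39.5 CPM, by 0.72 on the log2 scale. The difference did not pass in the main edgeR fit (SE 0.177, adjusted p = 0.0148). It passed with DESeq2 (adjusted p = 0.00263) and in edgeR with a block for the replicate number (adjusted p = 0.00188).

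The other mutant comparisons of batch 1 gave no member that passed. HIF-1a was below HIF-1aDM in ISCU by 0.55 on the log2 scale (adjusted p = 0.111) and HIF-2a was below HIF-2a R27E by 0.48 (adjusted p = 0.104) and below HIF-2aDM by 0.36 (adjusted p = 0.249), without overlap in any of the 3. By edgeR 1, 2 and 0 members had an unadjusted p under 0.05 in these comparisons, DESeq2 passed 0, and 1.6%, 4.99% and 5.43% of all genes passed and 1.37%, 3.63% and 3.96% were called. The ISCU means of batch 1 ran from 25.8 ± 1.73 CPM in HIF-1a and 30.0 ± 2.59 in HIF-2a to 45.6 ± 8.05 in HIF-2a KIN, and the break in that order was between HIF-1a and HIF-2a.

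The transcript of ISCU and the microRNA known to repress it are shown because their letters pair. Mature hsa-miR-210-3p (RefSeq, GRCh38.p14, chr11:568112-568133, minus strand) has its seed, bases 2 to 8, in capitals. The capitals in the ISCU stretch mark ACGCACA, the complement of the seed, at hg38 chr12:108569027-108569033 on the plus strand, in the 3′ untranslated region of 4 ISCU transcripts.
hsa-miR-210-3p: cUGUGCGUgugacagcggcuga
ISCU site: agctatgagatACGCACAatacttgctgt
The same 7 letters were present in a transcript of 1690 of 19702 protein-coding genes, 8.58%, and a match is not a measured site. Mature miR-210 was not measured in these libraries.

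MIR210HG, the host transcript of miR-210, was low in WT, the knock-in clones and the mutants. It was high in the lines with full-length HIF-a without a mutation and in the chimeras. In batch 2 it averaged 0.729 ± 0.0731 CPM in WT, 6.76 ± 0.630 in HIF-1a, 5.75 ± 0.716 in HIF-2a/1a, 4.75 ± 0.591 in HIF-2a and 3.66 ± 0.500 in HIF-1a/2a (SD, n = 3). The log2 changes were 3.22, 2.99, 2.71 and 2.33, and each passed, the smallest with an adjusted p of 7.67e-17 by edgeR. In batch 1 it averaged 1.13 ± 0.554 CPM in WT, 9.72 ± 3.8 in HIF-1a and 7.68 ± 3.07 in HIF-2a (log2 changes 3.11 and 2.77, adjusted p = 0.000315 and 0.000687 by edgeR). The means were 0.888 CPM in HIF-1b KIN, 1.06 CPM in HIF-2a KIN and 0.794 to 1.24 CPM in the 4 mutant lines. Whether MIR210HG has a part in the ISCU levels was not tested.

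**Figure D5:**
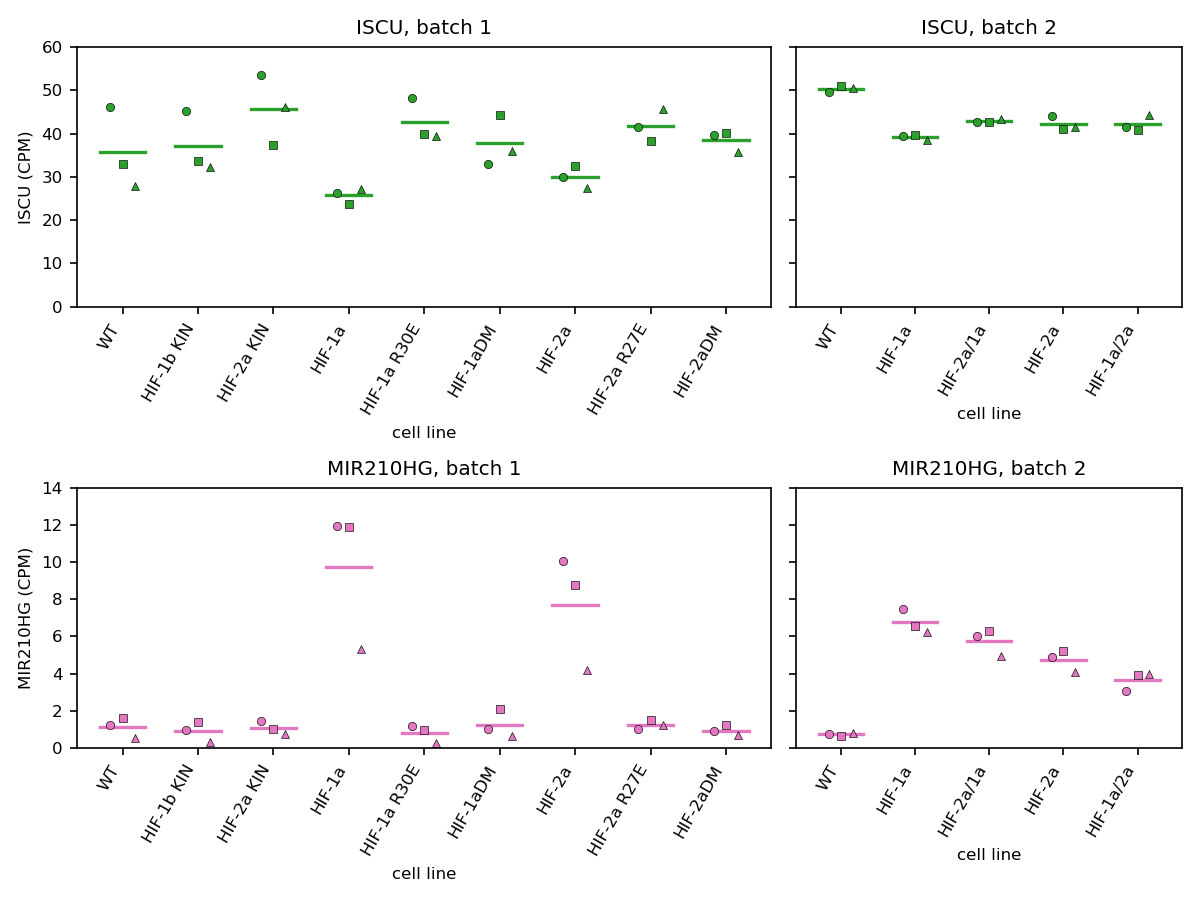
CPM of ISCU (top) and of MIR210HG (bottom) in each library of batch 1 (left) and batch 2 (right). Circles, squares and triangles are replicates 1, 2 and 3 and bars are group means. In batch 2 all 12 libraries of the lines lay below WT in ISCU and above it in MIR210HG, and in batch 1 HIF-1a had the lowest mean ISCU (25.8 CPM) and the highest mean MIR210HG (9.72 CPM).

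HIGD1A (chr3:42782908-42804490, minus strand) changed in no comparison that passed. In batch 2 the WT libraries held 27.0, 31.5 and 28.7 CPM and HIF-1a/2a held 33.2, 33.0 and 33.1 CPM. HIF-1a/2a lay above all other libraries of the batch, with a log2 change of 0.19 (SE 0.0683, adjusted p = 0.0266 by edgeR). HIF-2a was lowest at 26.5 ± 1.45 CPM, and the HIF-2a/1a, HIF-1a and WT means of 30.0, 29.4 and 29.0 CPM overlapped each other. The interaction of the IDR and the structured domain was -0.35 (SE 0.0970, adjusted p = 0.0136) and did not pass, although it passed with DESeq2 (adjusted p = 0.00312).

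In batch 1 HIGD1A ranged more widely within groups, from 6.83 to 20.0 CPM over the 3 HIF-1b KIN libraries, and only HIF-2a KIN, at 4.29, 6.57 and 7.35 CPM, lay wholly below WT at 9.43, 7.79 and 8.76 CPM (log2 change -0.51, adjusted p = 0.375). HIF-1aDM, at 9.49 to 12.4 CPM, lay wholly above it (0.33, adjusted p = 0.842). Its mean was 9.53 CPM over batch 1 and 29.6 CPM over batch 2, in libraries prepared differently. HIGD1A shares 488 exon bases, 16.1% of its merged exons, with the noncoding gene ENSG00000235288 and 309 bases with ENSG00000280571, both on its own strand. Its 17 annotated pseudogenes held 1761 reads, 3.08% of its own 57136, so its level is uncertain by reads that the copies may share.

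Other genes of the same pathways were followed through lists of tested genes in batch 2, none of which contains a member. In this paragraph HIF-1a, HIF-2a/1a, HIF-2a and HIF-1a/2a are always taken in that order. Of all tested genes 9.31%, 8.76%, 13.4% and 13.7% passed as higher and 7.87%, 7.91%, 14% and 14.1% as lower, with median log2 changes of 0.03, 0.03, 0.07 and 0.08. Of 16 complex IV subunits tested of 19, 0, 3, 8 and 6 rose and 1 fell in each line, with median log2 changes of 0.02, 0.07, 0.16 and 0.18. Of 37 complex I subunits, 1, 6, 9 and 9 rose and 3, 2, 4 and 3 fell, with medians of 0.01, 0.15, 0.11 and 0.15.

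Of 13 mitochondrial proteases and chaperones besides LONP1, 1, 1, 2 and 2 rose and 5, 3, 7 and 7 fell in the same 4 lines, with medians of -0.16, -0.12, -0.31 and -0.19. TRAP1, a mitochondrial chaperone of the HSP90 family, was the list gene called in HIF-2a. It averaged 146.9 ± 2.21 CPM in WT and 73.0 ± 5.13 CPM in HIF-2a of batch 2 (log2 change -1.01, SE 0.0594, adjusted p = 8.66e-19 by edgeR) and 144.7 ± 5.16 against 71.3 ± 11.7 CPM in batch 1 (-1.02, SE 0.174, adjusted p = 0.000121). It also fell in HIF-1a, by 0.48 in batch 2 and 0.83 in batch 1 on the log2 scale, and passed in no mutant line.

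Of the 26 assembly factors of complex IV, 0, 1, 3 and 5 rose and 4, 3, 8 and 4 fell, and of the 16 genes of iron-sulfur cluster assembly besides ISCU, 1, 1, 2 and 6 rose and 0, 0, 5 and 3 fell. Of the 4 HIG1 domain genes besides HIGD1A 2 were tested, and 1 rose in HIF-2a/1a. NDUFA13, a complex I subunit, was called in HIF-2a (log2 change 1.07, SE 0.279, adjusted p = 0.00181) at a low level, 0.494 ± 0.0328 CPM in WT and 1.03 ± 0.0709 CPM in HIF-2a. In batch 1 its change in HIF-2a was 0.39 (SE 1.39) and did not pass (adjusted p = 0.900 by edgeR). The WT libraries of that batch ranged from 1.20 to 9.87 CPM of NDUFA13. These lists were drawn up with earlier results of these data known, and nothing particular to a list is read from its counts.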

How the data were processed

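Poly-A RNA-seq of 786-O cells comprised 42 libraries in 14 groups of 3. The authors aligned reads to hg38 with STAR, kept uniquely mapped reads and counted them per GENCODE gene with HTSeq without strand, per the labels and the study's methods (the submitters' processing notes list STAR 2.7, SAMtools 1.9 and HTSeq 0.11.1). The deposited files hold raw counts per gene, and 0 other columns of per-sample values were left out. Groups were taken from the sample titles. The genotype tag of the HIF-2aDM samples names HIF-1a, whereas their title, description and source name HIF-2a. That group averaged 724.6 CPM of EPAS1 and 2.87 CPM of HIF1A, against 215.9 and 3.61 CPM in WT of batch 1. Members and gene lists were chosen with earlier results of these data known. The named genes are the 7 members, HIF1A and EPAS1, of each list at most 3 genes called in HIF-1a or HIF-2a of batch 2, and the 5 genes most like NDUFA4L2, of which 1 is not reported here. C15orf48, SHMT2 and other overlapping genes, the genes named by Spearman's rho and the cell markers stand outside that rule.

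Genes averaging 0.5 or more normalized counts over a batch entered its fit (23410 in batch 1, 28724 in batch 2, 22915 for both). edgeR 4.0.16 (R 4.3.3, limma 3.58.1) fitted all groups of a batch with TMM factors of 0.822 to 1.16 and 0.963 to 1.03, and its two-sided quasi-likelihood test was adjusted by Benjamini-Hochberg. For a ratio of paralogs 0.5 reads were added to each count, and lengths and overlaps are from merged exons of GENCODE v44, whereas the authors counted with v32. The likeness used genes with a mean of at least 50 and a prior count of 2. Alternatives were DESeq2 1.42.0, RLE size factors, other filters, a replicate block, only the groups compared and leaving out each library. Same-numbered libraries deviated together in batch 1 (mean correlation 0.148, 0.155 and 0.429 for numbers 1, 2 and 3) and every number exceeded 0.1 in 7 of its comparisons. They did not in batch 2. No 2 libraries held identical counts.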

Additional observations from a re-analysis of the deposited data

Results flagged for a closer look

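Among the lines of batch 2, the NDUFA4 difference between lines with unlike IDRs was not the same for the 2 structured parts. The interaction in the fit was 0.56 (SE 0.0753, adjusted p = 5.13e-07 by edgeR), with a log2 difference from WT of -0.58 in HIF-1a/2a against 0.07, 0.18 and 0.09 in HIF-1a, HIF-2a/1a and HIF-2a. The interaction of C15orf48 also passed, with the opposite sign, at -0.91 (SE 0.0996, adjusted p = 4.38e-09 by edgeR). Its changes from WT were 2.10 in HIF-1a/2a against -0.28, -0.81 and 0.66 in HIF-1a, HIF-2a/1a and HIF-2a. C15orf48 was thus higher with the HIF-2a IDR on either structured part, with an IDR effect of 1.93 (adjusted p = 1.3e-31). Both interactions were tested across all genes, and C15orf48 was chosen after its values were seen.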

How the results depend on the processing

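NDUFA4L2 kept its call in HIF-1b KIN under all alternatives run. The number of members called in HIF-1a against HIF-1a R30E went from 1 to 0 with RLE size factors (adjusted p = 0.0105 for NDUFA4L2), with no filter on low counts (0.0188) and with only the groups compared (0.107), and that in HIF-1a R30E against WT went from 1 to 0 with only the groups compared (0.0373). Leaving out single libraries gave 0 to 1 members called in each of these 2 comparisons and in HIF-1a and HIF-1a/2a against WT of batch 2. The cause was not tested. With the longest transcript in place of merged exons, the log2 ratio NDUFA4L2/NDUFA4 became -3.62 in HIF-1a and -4.50 in HIF-2aDM of batch 1 and -5.00, -6.16, -5.81 and -5.75 in WT, HIF-1a, HIF-2a/1a and HIF-2a of batch 2, since the lengths differ. No value that passed changed sign under any alternative run. Of the members' values under these alternatives, 27 no longer passed, 20 newly passed, 27 that passed in neither fit moved by at least 1 SE, and the other 1732 did none of these.

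In batch 2 the replicate numbers did not pair the libraries (mean correlation of -0.00105, 0.0067 and 0.00933), and a block additionally passed NDUFA4 (adjusted p = 0.00683) and LONP1 (0.00197) in HIF-2a/1a, LONP1 in the structured-domain effect (0.0044) and HIGD1A in the interaction (0.00406). In batch 1 a block also passed ISCU in HIF-1a against HIF-1a R30E (0.00188), where correlations of same-numbered libraries ran from -0.1 to 0.404. No other member's call changed with the block, apart from LONP1 between HIF-2a and HIF-1a of batch 1.

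Over all genes, 322 were called in HIF-1b KIN and 195 with only the groups compared. DESeq2, no filter and the block gave 204, 208 and 207 against 107 in HIF-1aDM, 196, 215 and 213 against 116 in HIF-2a R27E (3 with only the groups compared) and 203, 209 and 209 against 111 in HIF-2aDM. HIF-2a against HIF-2a R27E had 849 called and 532 with only the groups compared. The batch difference of HIF-2a had 0 called, 53 with DESeq2, 4 with no filter and 103 with the block, and that of HIF-1a 0 and 2 with the block. NDUFA4L2, with 30 to 205 reads per library, was the tested member with the least depth.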
